A study of Mus musculus with 32 samples.

Results

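The extracellular matrix genes followed here were 46 listed genes for collagens, laminins, nidogens, proteoglycans, elastic fibre proteins, matricellular glycoproteins, matrix proteases and their inhibitors. They were taken by gene symbol, and 43 of the 46 were represented on the array, by 69 of the 12422 probe sets that are not controls and among 8251 genes in all. Fbn1, Spp1 and Thbs1 were not analysed here, because no probe set mapped to them alone. RNA was measured on 32 Affymetrix arrays of C2C12 cells, a mouse myoblast line that leaves the cell cycle and fuses into myotubes when growth medium is replaced by differentiation medium. In the trichostatin A arm, total RNA came from untreated control cells and from cells given trichostatin A (TSA), which inhibits histone deacetylases. Both were measured at 0 h, while in growth medium, and at 4, 12, 24 and 48 h of differentiation medium, with 2 arrays in each of 10 groups. In the Sir2 arm, cells carrying the pHan vector alone or pHan with Sir2, a deacetylase that uses NAD, were measured at 12 and 36 h of differentiation medium, in 4 groups of 3 arrays. The labels give neither the dose and washing of TSA nor whether the Sir2 cells were a clone, and they do not say that replicate arrays came from separate cultures, so p values measure the spread between these arrays.

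Collagens are secreted as procollagens, trimmed outside the cell and cross-linked by lysyl oxidases into fibrils, whose width is tuned by small leucine-rich proteoglycans such as decorin. A second set of proteins, with type IV collagen, laminins and nidogens at its core, forms the basement membrane that surrounds each muscle fibre and that integrins and dystroglycan attach to. Metalloproteases cleave these proteins, tissue inhibitors of metalloproteases (Timp proteins) restrain them, and the myoblasts themselves secrete much of the matrix they differentiate on.

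Each value is an intensity on the linear scale of its arm, and the arms are on different scales, so levels were compared within an arm. Changes were taken within a probe set. Levels of different probe sets were set side by side or summed only to describe brightness and marker lists. A log2 change is the difference in mean log2(intensity + pseudocount), with its standard error, which understates changes of dim probe sets, and a probe set passed at an adjusted p under 0.05 (limma, Benjamini-Hochberg over all 7453 probe sets tested in the arm). In the TSA arm 53 probe sets of 38 matrix genes were bright enough to be tested, and in the Sir2 arm 50 probe sets of 36. They were bright for these arrays: their median intensity was 1607 against 797 over all tested probe sets in the TSA arm and 327 against 147 in the Sir2 arm. Where a gene had several probe sets, the brightest of the arm stands for it unless another is named. Array medians ran from 253 to 286 in the TSA arm and from 50.4 to 57.5 in the Sir2 arm. The ratio of the 3' to the 5' control probe sets of Gapdh was 0.815 ± 0.0438 (SD, n = 10) in TSA-treated and 0.866 ± 0.0415 (SD, n = 10) in control arrays, with a two-sided exact permutation p of 0.00823 and 0.0741 after adjustment over 9 array measures, and its part in the results was not tested.

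The cell type given by the labels was checked on marker genes. On the 20 arrays of the TSA arm the myoblast genes Myod1, Des, Cdh15 and Myf5 read at least 1447, 1482, 2610 and 703, beside array medians of 253 to 286. In the Sir2 arm they read at least 765, 289, 977 and 88.8, beside array medians of 50.4 to 57.5. All 6 myotube genes (Myog, Acta1, Myl1, Myh3, Ckm and Tnnc1) were higher in untreated cells at 48 h than at 0 h. In the TSA arm 21.1 to 24.2% of the probe sets of an array were at or below 0, and in the Sir2 arm none was, so readings above 0 tell nothing there. Of other matrix-producing cells, the fibroblast marker Thy1 was at or below 0 on 18 of 20 arrays of the TSA arm, while S100a4, Pdgfrb, Pdgfra and Dpt were above 0 on all 20. Of the 5 endothelial markers, Cdh5 was at or below 0 on 18 of the 20 arrays, Tie1 on 7, Pecam1 on 6, Tek on 2 and Kdr on 0, with Kdr between 412 and 1336. Of the smooth muscle and myofibroblast list, Acta2 read 7649 to 20057, Tagln 511 to 10965, Cnn1 152 to 1556 and Myh11 at most 197. Of the bone and cartilage list, Ibsp read 1072 to 1806, and Acan, Col2a1 and Alpl at most 385, 333 and 147. In the Sir2 arm Acta2 read 1090 to 2670 and Ibsp at most 44.4. In bulk RNA, fewer cells of a type and less RNA per cell cannot be told apart. Sirt1, the mouse homologue of Sir2, read 37.5, 48.7 and 39.9 in Sir2 cells against 20.3, 9.48 and 14.2 in vector cells at 12 h (adjusted p = 0.0316), and 80.5, 69.2 and 35.8 against 39.4, 19.6 and 36.9 at 36 h (adjusted p = 0.106). The groups did not overlap at 12 h and overlapped at 36 h.

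Upstream sequence was available for 29 of the 43 genes, from RefSeq on mouse build GRCm38.p6, with 35 start sites in all. It is shown for the genes whose response to TSA passed at 4 or 5 of the 5 times and always in 1 direction, Timp1 (inhibitor of metalloproteases) and Tnc (tenascin C), which rose, and Col3a1 (the type III collagen chain), which fell. Each line gives the 250 bases before the start site, 5' to 3' on the gene's own strand, with every letter in a match to any of 8 searched motifs in capitals.
Timp1: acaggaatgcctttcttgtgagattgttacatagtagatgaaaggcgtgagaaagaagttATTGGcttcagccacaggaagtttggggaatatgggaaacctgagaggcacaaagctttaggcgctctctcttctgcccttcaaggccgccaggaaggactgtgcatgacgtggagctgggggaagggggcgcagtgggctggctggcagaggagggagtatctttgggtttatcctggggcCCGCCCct
Tnc: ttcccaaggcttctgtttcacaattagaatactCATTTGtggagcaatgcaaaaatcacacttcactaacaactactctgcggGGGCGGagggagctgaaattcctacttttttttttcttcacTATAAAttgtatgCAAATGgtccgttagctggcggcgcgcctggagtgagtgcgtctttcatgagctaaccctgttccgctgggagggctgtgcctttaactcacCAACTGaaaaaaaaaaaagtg
Col3a1: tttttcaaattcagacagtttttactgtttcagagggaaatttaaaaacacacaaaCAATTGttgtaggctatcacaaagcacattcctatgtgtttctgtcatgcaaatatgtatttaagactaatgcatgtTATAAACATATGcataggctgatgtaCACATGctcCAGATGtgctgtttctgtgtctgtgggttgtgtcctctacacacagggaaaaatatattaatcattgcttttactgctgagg

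The Timp1 window lies at chrX:20869916-20870165 on the plus strand, the Tnc window at chr4:64047016-64047265 on the minus strand and the Col3a1 window at chr1:45311288-45311537 on the plus strand. In Timp1 the capitals mark a CCAAT box and a GC box (GGGCGG), both on the opposite strand, in Tnc a GC box, a TATA box (TATAAA) and 3 E-boxes (CANNTG), and in Col3a1 a TATA box and 4 E-boxes. Over all matrix windows, searched on both strands, the E-box CANNTG that myogenic factors bind was in 57.1% of 35, against 59.1% of 8413 windows of genes on the array and 66.2% of all 32851 in the table. Its form CAGCTG, which it includes, was in 14.3%, 11.9% and 13% in the same order. The other shares were, in that order, 60%, 52.8% and 32.7% for GGGCGG, 34.3%, 34.6% and 33.8% for CCAAT, 14.3%, 8.94% and 12.4% for TATAAA, 2.86%, 5.54% and 6.75% for the AP-1 site TGANTCA, 8.57%, 7% and 7.11% for the SMAD site GTCTAG, and 2.86%, 0.939% and 1.56% for the MEF2 core TATTTATA. A match describes the letters only. The type IV collagen genes Col4a1 and Col4a2 start 21 bases apart on opposite strands of chromosome 8.

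The matrix genes as a list passed the threshold in larger shares than all tested probe sets in most comparisons. In untreated cells 1 of 53 matrix probe sets passed at 4 h against 0 h (1.89%, background 2.05%), 9 at 12 h (17%, background 5.23%), 13 at 24 h (24.5%, background 12.9%) and 29 at 48 h (54.7%, background 35.3%). TSA against control passed for 18 at 0 h (34%, background 17.9%), 12 at 4 h (22.6%, background 11.4%), 10 at 12 h (18.9%, background 4.08%), 12 at 24 h (22.6%, background 5.94%) and 20 at 48 h (37.7%, background 19.6%). Sir2 against vector passed for 10 of 50 at 12 h (20%, background 5.55%) and 25 at 36 h (50%, background 9.26%). Among these comparisons the share stood farthest above the background for Sir2 at 36 h, and it was below it for untreated cells at 4 h, where Tnc alone passed, with a log2 change of 0.82 ± 0.14 (adjusted p = 0.0108). These are probe sets of unequal brightness, several to some genes, and no test of the list was made. Fits on only the 2 groups compared, with 2 arrays each, left no matrix probe set past the threshold in limma for TSA at 12, 24 or 48 h, with 20, 19 and 21 at an unadjusted p under 0.05. The single-time TSA calls therefore use the spread estimated over all 20 arrays of the arm. The Tnc untreated call at 4 h rested on each of its 4 arrays (adjusted p = 0.077 to 0.115 without 1 of them).

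**Figure D1:**
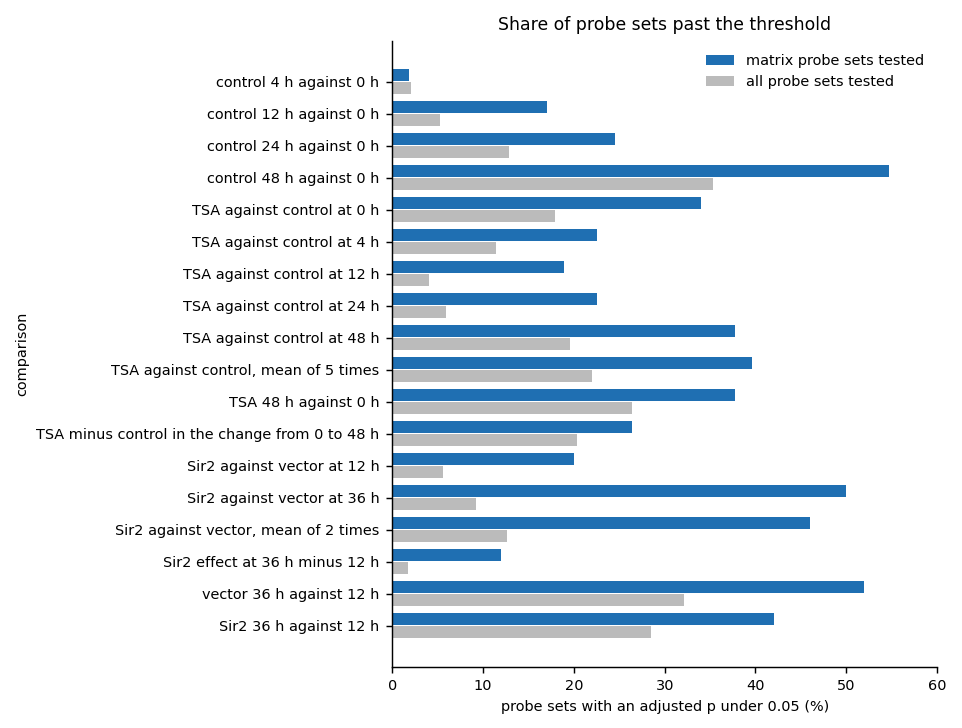
Percent of matrix probe sets (53 in the TSA arm, 50 in the Sir2 arm) and of all 7453 tested probe sets with an adjusted p under 0.05, 1 pair of bars per comparison. The matrix bar is the longer in all pairs but that of untreated cells at 4 h, at 50% against 9.26% for Sir2 at 36 h and 54.7% against 35.3% for untreated cells at 48 h.

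The untreated series compared each time in differentiation medium with growth medium. By 48 h, decorin, the type VI collagen chains Col6a1 and Col6a2, Lama2 and 3 of 6 fibrillar collagens had risen, while Lox, Mgp, Nid1, Nid2, Col6a3 and Timp1 had fallen. Among the 38 genes, 9 were past the threshold as higher, 12 as lower and 17 in neither direction. The median log2 change of the 53 probe sets was 0.08 against 0.01 over all tested. Over all tested probe sets, 16% passed as higher and 19.3% as lower at 48 h. Beside these changes all 6 myotube markers rose and 2 of 3 tested fibroblast markers fell: S100a4 fell by 2.24 ± 0.25 (adjusted p = 2.08e-05) and Pdgfrb fell by 1.29 ± 0.24 (adjusted p = 0.00126) on the log2 scale. The summed level of the fibroblast list was 18628 to 27391 on the arrays at 0 h and 4527 to 6019.9 on those at 48 h. S100a4 made up most of this sum, at 3656 to 29529 over the 20 arrays of the arm. The next highest gene of the list, Pdgfrb, read at most 1019. The part of these markers in the matrix changes was not tested.

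**Figure D2:**
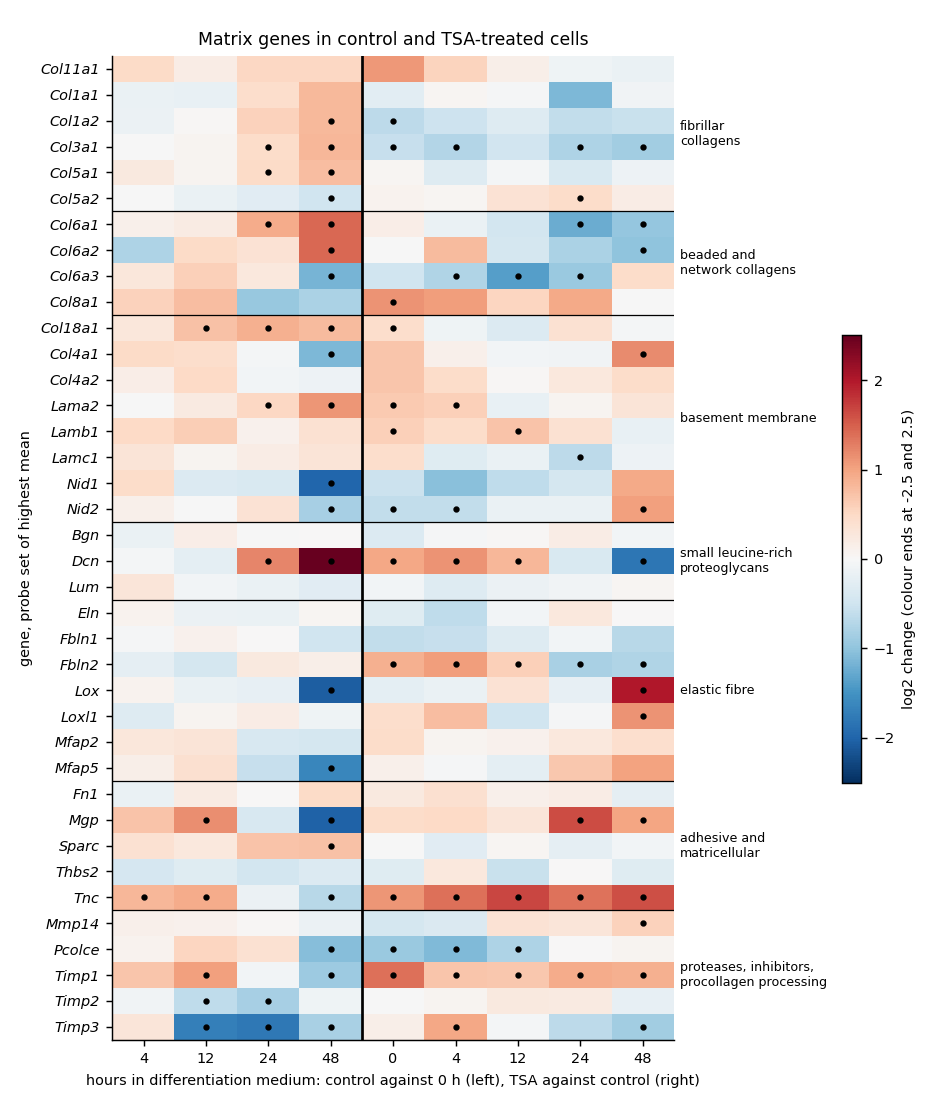
Log2 changes of the 38 matrix genes tested in the TSA arm, for untreated cells at 4, 12, 24 and 48 h against 0 h and for TSA against control at 0, 4, 12, 24 and 48 h, with colours ending at -2.5 and 2.5 and a dot where the adjusted p was under 0.05. Dcn is high at 48 h in untreated cells (2.77) and low with TSA at 48 h (-1.80), and Tnc is high with TSA at all 5 times.

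Among the fibrillar collagens, which form the banded fibrils of connective tissue, 3 of 6 rose at 48 h and 1 fell. Col3a1 read 9543 and 10359 on the 2 arrays at 0 h and 16150.3 and 19802 at 48 h, a log2 change of 0.84 ± 0.13 (adjusted p = 0.000375). Col1a2, the second chain of type I collagen, went from 5040.4 and 5515 to 9362 and 9417, a change of 0.82 ± 0.18 (adjusted p = 0.00406). In both genes the arrays at 48 h lay above those at 0 h without overlap. Col1a1, the partner chain of Col1a2, was less settled: its brightest probe set gave 0.80 ± 0.31 (adjusted p = 0.0657), short of the threshold, and its other probe set, 94305_at, rose by 2.14 ± 0.49 (adjusted p = 0.00463). The type V collagen chains, which seed the fibrils, parted: Col5a1 changed by 0.77 ± 0.14 (adjusted p = 0.00112) and Col5a2 by -0.51 ± 0.12 (adjusted p = 0.00467). Col11a1, a minor fibril chain best known from cartilage, gave 0.52 ± 0.36 (adjusted p = 0.302), which did not pass. The Col1a1 untreated call at 48 h was lost without control 0 h replicate 1 (adjusted p = 0.0586).

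The 3 chains of type VI collagen, a beaded filament next to the basement membrane of muscle, did not move together. Col6a1 read 1359 and 1167 at 0 h and 3453 and 3835 at 48 h, a log2 change of 1.43 ± 0.19 (adjusted p = 8.2e-05). Col6a2 read 131 and 115 and then 553 and 591, a change of 1.44 ± 0.30 (adjusted p = 0.00256). Col6a3 read 3232 and 3477 and then 1611 and 1259, a change of -1.16 ± 0.20 (adjusted p = 0.000685). So the arrays at 48 h were all above 0 h for the first and second chain and all below it for the third, although the 3 chains are assembled into 1 trimer. Col8a1, a short network-forming chain of vessel walls, gave -0.78 ± 0.32 (adjusted p = 0.0733), which did not pass.

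In the basement membrane group 2 of 8 genes rose and 3 fell at 48 h. Lama2, the laminin chain of the muscle basement membrane that is lost in a congenital muscular dystrophy, read 412 and 433 at 0 h and 933 and 1218 at 48 h, a log2 change of 1.11 ± 0.14 (adjusted p = 4.23e-05). Col18a1, whose end fragment is endostatin, changed by 0.79 ± 0.13 (adjusted p = 0.000505) and had passed since 12 h, at 0.73 ± 0.13 (adjusted p = 0.00933). Against these, the nidogens that join laminin to type IV collagen both fell: Nid1 from 748 and 1159 to 159.6 and 113, or -1.97 ± 0.44 (adjusted p = 0.00387). Nid2 went from 1418 and 1747 to 871 and 789.8, or -0.82 ± 0.13 (adjusted p = 0.000387). Neither nidogen had overlapping arrays at 0 and 48 h. Col4a1 changed by -1.12 ± 0.23 (adjusted p = 0.00225) while its neighbour Col4a2 gave -0.13 ± 0.23 (adjusted p = 0.7) and did not pass. The difference between the 2 genes was not tested, and the remaining laminin chains did not pass, with 0.37 ± 0.17 (adjusted p = 0.111) for Lamb1 and 0.33 ± 0.16 (adjusted p = 0.14) for Lamc1. The Col18a1 untreated call at 12 h was lost without 1 of control 0 h replicate 2 or control 12 h replicate 2 (adjusted p = 0.0601 to 0.0837).

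Decorin was the member with the largest rise. Dcn read 202 and 184 at 0 h, 123 and 259 at 4 h, 109 and 174 at 12 h, 549 and 731 at 24 h and 2005 and 2249 at 48 h. No time before 24 h passed, and Dcn then rose, by 1.22 ± 0.20 (adjusted p = 0.00174) at 24 h and 2.77 ± 0.20 (adjusted p = 4.63e-07) at 48 h against 0 h. Biglycan, its close relative, was the brightest matrix probe set of the arm and read 25686 and 20840.4 at 0 h and 24707 and 22073 at 48 h, a log2 difference of 0.01 ± 0.13 (adjusted p = 0.95). Lumican gave -0.28 ± 0.33 (adjusted p = 0.54) and did not pass, and fibromodulin lay between -552 and 145 over the 20 arrays, with a mean under the level for testing.

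Of the 7 elastic fibre and cross-linking genes 2 fell at 48 h, Lox and Mfap5, and 0 rose by their brightest probe set. Lox, lysyl oxidase, read 2302 and 2283 at 0 h and 478 and 413 at 48 h on probe set 161177_f_at, a change of -2.06 ± 0.31 (adjusted p = 0.000204). Its other probe set, 160095_at, went from 2362 and 2597 to 398 and 254, a change of -2.51 ± 0.18 (adjusted p = 3.16e-07). Both probe sets put all arrays at 48 h below all arrays at 0 h. The microfibril gene Mfap5 had probe sets that disagreed, with -1.63 ± 0.39 (adjusted p = 0.00561) for 99517_at and 0.11 ± 0.29 (adjusted p = 0.799) for 99518_at, and so had elastin, with 0.05 ± 0.26 (adjusted p = 0.912) for 92207_at and 0.93 ± 0.26 (adjusted p = 0.0138) for 92836_at. Fbln1, Fbln2, Mfap2 and Loxl1 did not pass at 48 h, with log2 changes of -0.50, 0.15, -0.43 and -0.11. The Eln untreated call at 48 h was lost without 1 of control 0 h replicates 1 or 2 or control 48 h replicate 2 (adjusted p = 0.0539 to 0.0699).

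The adhesive genes and the protease inhibitors included several that passed early and then changed side. Mgp, matrix Gla protein, an inhibitor of calcification, read 7314 and 5491 at 0 h, 13299 and 15610.1 at 12 h and 1254 and 1668 at 48 h, a rise of 1.17 ± 0.21 (adjusted p = 0.00861) at 12 h and a fall at 48 h, with -2.03 ± 0.21 (adjusted p = 8.63e-06). Timp1 read 10197 and 9662 at 0 h, 19333 and 21148 at 12 h and 4965 and 5447 at 48 h, with 1.02 ± 0.16 (adjusted p = 0.005) at 12 h and -0.91 ± 0.16 (adjusted p = 0.000867) at 48 h. Tnc followed the same order, with 0.93 ± 0.14 (adjusted p = 0.00356) at 12 h and -0.68 ± 0.14 (adjusted p = 0.00232) at 48 h. In each of these genes the 12 h arrays were above the 0 h arrays and the 48 h arrays below them. Timp3, the inhibitor bound to the matrix, was already lower at 12 h, with -1.71 ± 0.24 (adjusted p = 0.00201), and -0.80 ± 0.24 (adjusted p = 0.0196) at 48 h. Timp2, which also takes part in activating proMmp2, changed by -0.83 ± 0.16 (adjusted p = 0.00384) at 24 h and gave -0.11 ± 0.16 (adjusted p = 0.614) at 48 h. Pcolce, which speeds procollagen trimming, changed by -1.06 ± 0.18 (adjusted p = 0.000701) at 48 h and Sparc, a collagen-binding glycoprotein, by 0.72 ± 0.23 (adjusted p = 0.0258). Fibronectin (Fn1, 0.48), Thbs2 (-0.34) and the membrane protease Mmp14 (-0.15) did not pass at 48 h. The Mgp untreated call at 12 h was lost without 1 of control 0 h replicate 2 or control 12 h replicate 2 (adjusted p = 0.0799 to 0.0923). The Timp1 untreated call at 12 h was lost without 1 of control 0 h replicate 2 or control 12 h replicate 2 (adjusted p = 0.0518 to 0.054). The Timp3 untreated call at 48 h was lost without 1 of control 0 h replicate 2 or control 48 h replicate 2 (adjusted p = 0.135 to 0.181). The Sparc untreated call at 48 h was lost without 1 of control 0 h replicates 1 or 2 or control 48 h replicate 1 (adjusted p = 0.0754 to 0.207).

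TSA against control compared cells with and without inhibition of histone deacetylases. Averaged over the 5 times, 10 of 38 genes passed as higher and 5 as lower with TSA, led upward by Tnc, Timp1, Mgp and Col8a1 and downward by Col3a1, Col6a3, Pcolce, Col6a1 and Col1a2. Of the 53 probe sets 13 passed as higher and 8 as lower (39.6%, against 22% over all tested, 10.2% higher and 11.9% lower), and their median log2 change was -0.04 against -0.03. At single times 23 of the 38 genes passed at 1 time or more and 15 at none. Timp1, Tnc and Fbln2 passed at all 5 times, and Dcn and Col3a1 at 4. Dcn, Fbln2, Nid2 and Timp3 passed as higher at 1 time or more and as lower at another, and so did the dimmer probe sets of Lox (160095_at) and Eln (92836_at). Matching shares over all tested probe sets were not counted, so these counts over the 5 times stand without a background. Tagln, a marker of smooth muscle and myofibroblasts, was higher with TSA by 1.05 ± 0.09 (adjusted p = 4.79e-06) and Pdgfrb lower, with -0.74 ± 0.11 (adjusted p = 0.000372), and all 4 myoblast markers were higher. Tagln is 1 of 4 genes on its list, with Acta2, Cnn1 and Myh11. The summed level of that list was 19201 to 21534 with TSA against 13115 to 18569 without at 0 h. At 48 h it was 20404 to 23381 against 12301 to 14531. Of the fibroblast list 1 of 3 tested markers passed, Pdgfrb. The summed level of the 6 myotube markers was 1044 to 1287 with TSA against 3459 to 3702 without at 12 h and 14709 to 15132 against 28165 to 28428 at 24 h, lower with TSA. At 48 h it was 119716 to 142910.0 against 91555 to 100750.0, higher with TSA. Of the 6, 2 passed as lower at 12 h, 4 as lower at 24 h and 2 as higher at 48 h. The part of these markers in the matrix changes was not tested. TSA against control and the change in control cells share the control arrays, so their values are given side by side only.

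Tenascin C, an adhesion-modulating glycoprotein, had the largest mean rise with TSA. Tnc read 4414 and 5196 with TSA against 2151 and 2172 in control cells at 0 h, and 14555 and 12936 against 4381 and 4091 at 12 h. At 48 h it read 4909.6 and 3680.4 against 1232 and 1357. TSA-treated arrays were above control arrays without overlap at all 5 times. The mean difference was 1.42 ± 0.06 (adjusted p = 1.42e-08) on the log2 scale, the differences at 0, 4, 12, 24 and 48 h were 1.10, 1.37, 1.66, 1.35 and 1.62, and the F test of a difference between times did not pass (adjusted p = 0.201). The second probe set of Tnc, 162362_f_at, gave a mean of 1.26 ± 0.12 (adjusted p = 1.41e-05) and an adjusted p of 0.0417 in the F test, which did not pass without any 1 of 14 of the 20 arrays (adjusted p = 0.0581 to 0.126).

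Timp1, the soluble inhibitor, was also higher with TSA at each time. It read 23235 and 28750.1 with TSA against 10197 and 9662 in control cells at 0 h, 18247 and 17677 against 9496 and 9378 at 24 h and 10229 and 9214 against 4965 and 5447 at 48 h. None of the 5 times had overlapping arrays. The mean difference was 0.91 ± 0.07 (adjusted p = 2.85e-06), with 1.37 ± 0.16 (adjusted p = 0.000104) at 0 h, 0.70 ± 0.16 (adjusted p = 0.0162) at 4 h, 0.67 ± 0.16 (adjusted p = 0.0404) at 12 h, 0.92 ± 0.16 (adjusted p = 0.0052) at 24 h and 0.88 ± 0.16 (adjusted p = 0.00253) at 48 h. Timp2 had a mean difference of 0.07 ± 0.07 (adjusted p = 0.554), which did not pass, and Timp3 was higher at 4 h, by 0.97 ± 0.24 (adjusted p = 0.0199), and lower at 48 h, with -0.86 ± 0.24 (adjusted p = 0.0234). Among the proteases, Mmp14 was higher at 48 h, by 0.58 ± 0.16 (adjusted p = 0.0252), and the 2 probe sets of Mmp2 lay between -122 and 304, with means under the level for testing. The Timp1 TSA call at 4 h was lost without 1 of TSA 4 h replicate 1 or control 4 h replicates 1 or 2 (adjusted p = 0.0696 to 0.146). The Timp1 TSA call at 12 h rested on each of its 4 arrays (adjusted p = 0.128 to 0.252 without 1 of them). The Timp3 TSA call at 4 h rested on each of its 4 arrays (adjusted p = 0.0667 to 0.116 without 1 of them). The Timp3 TSA call at 48 h was lost without 1 of TSA 48 h replicate 1 or control 48 h replicate 1 (adjusted p = 0.123 to 0.177). The Mmp14 TSA call at 48 h was lost without 1 of TSA 48 h replicate 1 or control 48 h replicate 1 (adjusted p = 0.144 to 0.175).

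Other genes with a raised mean were Mgp, Col8a1 and genes of the basement membrane. Mgp read 17768 and 12922 with TSA against 4599 and 4955 without at 24 h, and 2870.4 and 3140.5 with TSA against 1254 and 1668 without at 48 h. Treated arrays were the higher ones at both times. Its mean difference over the 5 times was 0.78 ± 0.09 (adjusted p = 6.95e-05), with 1.64 ± 0.21 (adjusted p = 0.000419) at 24 h and 0.99 ± 0.21 (adjusted p = 0.0055) at 48 h. Col8a1 had a mean difference of 0.72 ± 0.14 (adjusted p = 0.00258). In the basement membrane group 4 of 8 genes passed with a higher mean and 0 with a lower one: Lamb1 by 0.40 ± 0.08 (adjusted p = 0.00238), Col4a2 by 0.38 ± 0.10 (adjusted p = 0.0203), Col4a1 by 0.37 ± 0.10 (adjusted p = 0.0216) and Lama2 by 0.29 ± 0.06 (adjusted p = 0.00385). Col4a1 passed at 48 h alone of the single times, by 1.18 ± 0.23 (adjusted p = 0.00361), and Col4a2 at none. Col5a2 had a mean of 0.23 ± 0.05 (adjusted p = 0.00618) and Loxl1, a lysyl oxidase of elastic fibres, one of 0.36 ± 0.11 (adjusted p = 0.0363). The Loxl1 mean TSA call was lost without 1 of TSA 0 h replicates 1 or 2, TSA 4 h replicate 2, TSA 12 h replicate 1, TSA 24 h replicates 2 or 3, TSA 48 h replicate 1, control 0 h replicates 1 or 2, control 4 h replicate 1, control 12 h replicate 1, control 24 h replicate 3 or control 48 h replicate 1 (adjusted p = 0.0507 to 0.0765).

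Collagen chains and Pcolce made up the genes with a lowered mean. Col3a1 read 7253 and 5979 with TSA against 9543 and 10359 without at 0 h, and 9820.0 and 9567 against 16150.3 and 19802 at 48 h. Control arrays were the higher ones at both times. Its mean difference was -0.69 ± 0.06 (adjusted p = 5.53e-06), its other probe sets gave -0.52 ± 0.06 (adjusted p = 3.46e-05) and -0.67 ± 0.12 (adjusted p = 0.00136), and at single times it passed at 0, 4, 24 and 48 h but not at 12 h, where it gave -0.48 ± 0.13 (adjusted p = 0.0764). Col1a2 had a mean of -0.53 ± 0.08 (adjusted p = 0.000488) on its brightest probe set, and its other tested probe set, 161156_r_at, gave -0.09 ± 0.07 (adjusted p = 0.401). For Col1a1, probe set 94305_at gave -1.20 ± 0.22 (adjusted p = 0.00168) and the brighter 103709_at -0.29 ± 0.14 (adjusted p = 0.176). The calls of both type I collagen chains thus depend on the probe set. On 94305_at the TSA arrays at 0 h averaged -40.9, with both at or below 0. Values below 0 were set to 0, so its change rests in part on such readings. Pcolce was lower at 0, 4 and 12 h, with -0.92 ± 0.18 (adjusted p = 0.00365) at 0 h, -1.11 ± 0.18 (adjusted p = 0.00187) at 4 h, -0.77 ± 0.18 (adjusted p = 0.0355) at 12 h, and it did not pass at 24 h (0.01) or 48 h (0.07). Col6a3 was lower at 4, 12 and 24 h, with -1.37 ± 0.20 (adjusted p = 0.00181) at 12 h and a mean of -0.62 ± 0.09 (adjusted p = 0.000342), and Col6a1 was lower at 24 and 48 h, with -1.24 ± 0.19 (adjusted p = 0.00177) at 24 h and a mean of -0.54 ± 0.09 (adjusted p = 0.000611). Col6a2 was lower at 48 h, with -1.0 ± 0.30 (adjusted p = 0.0361). The Col3a1 TSA call at 0 h was lost without 1 of TSA 0 h replicate 2 or control 0 h replicate 2 (adjusted p = 0.0763 to 0.099). The Pcolce TSA call at 12 h rested on each of its 4 arrays (adjusted p = 0.0843 to 0.211 without 1 of them). The Col6a3 TSA call at 4 h was lost without 1 of TSA 4 h replicate 1 or control 4 h replicates 1 or 2 (adjusted p = 0.0509 to 0.258). The Col6a3 TSA call at 24 h was lost without 1 of TSA 24 h replicate 2 or control 24 h replicates 2 or 3 (adjusted p = 0.0658 to 0.115). The Col6a2 TSA call at 48 h rested on each of its 4 arrays (adjusted p = 0.0814 to 0.149 without 1 of them).

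The TSA effect itself differed between the 5 times in 16 of 38 genes, and in 23 of 53 probe sets (43.4%, background 22.2%). Decorin had the smallest p in this test. Dcn read 519 and 506 with TSA against 202 and 184 at 0 h, 591 and 540.1 against 123 and 259 at 4 h and 284 and 434 against 109 and 174 at 12 h, and the treated arrays were the higher ones each time. At 48 h it read 543 and 482 against 2005 and 2249, and the treated arrays were the lower ones. The log2 differences were 0.97 ± 0.20 (adjusted p = 0.00461) at 0 h, 1.13 ± 0.20 (adjusted p = 0.00294) at 4 h, 0.82 ± 0.20 (adjusted p = 0.0399) at 12 h, -0.38 ± 0.20 (adjusted p = 0.363) at 24 h and -1.80 ± 0.20 (adjusted p = 6.98e-05) at 48 h, with an adjusted p of 5.59e-05 for their difference between times. From 0 to 48 h Dcn changed by 2.77 in control cells while treated cells did not pass (adjusted p = 1), and the difference of these changes was -2.77 ± 0.29 (adjusted p = 2.97e-05). The Dcn TSA call at 12 h was lost without 1 of TSA 12 h replicate 2 or control 12 h replicates 1 or 2 (adjusted p = 0.0748 to 0.316).

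Fibulin 2, which links elastic fibres and basement membrane, was also higher early and lower late. Fbln2 read 5927 and 6066 with TSA against 2502 and 3205 without at 4 h, and 2440.0 and 1898 with TSA against 3356 and 4127 without at 48 h. Treated arrays were above control arrays at 4 h and below them at 48 h. Its differences were 0.88 ± 0.15 (adjusted p = 0.00146) at 0 h, 1.05 ± 0.15 (adjusted p = 0.000822) at 4 h, 0.60 ± 0.15 (adjusted p = 0.0481) at 12 h, -0.81 ± 0.15 (adjusted p = 0.00777) at 24 h and -0.75 ± 0.15 (adjusted p = 0.00468) at 48 h (adjusted p = 8.05e-05 between times). From 0 to 48 h untreated cells gave 0.15 ± 0.15 (adjusted p = 0.505) and treated cells fell, with -1.49 ± 0.15 (adjusted p = 1.45e-05). The difference of these changes was -1.64 ± 0.22 (adjusted p = 0.000215). Over this interval 20 of 53 matrix probe sets passed in treated cells (37.7%, background 26.4%). The Fbln2 TSA call at 12 h rested on each of its 4 arrays (adjusted p = 0.0691 to 0.301 without 1 of them). The Fbln2 TSA call at 24 h was lost without 1 of TSA 24 h replicate 3 or control 24 h replicate 2 (adjusted p = 0.0576 to 0.0617).

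Nid2 and Lox were higher with TSA at 48 h, and Nid2 and 1 of the 2 probe sets of Lox were lower at 0 h. Nid2 read 901 and 1049.8 with TSA against 1418 and 1747 without at 0 h, and 1920.2 and 1756 with TSA against 871 and 789.8 without at 48 h. Treated arrays were the lower ones at 0 h and the higher ones at 48 h. The differences were -0.62 ± 0.13 (adjusted p = 0.0054) at 0 h, -0.61 ± 0.13 (adjusted p = 0.00961) at 4 h and 1.03 ± 0.13 (adjusted p = 0.000192) at 48 h, and the change from 0 to 48 h differed by 1.65 ± 0.19 (adjusted p = 6.23e-05) between treated and control cells. Lox read 1904 and 2548 with TSA and 478 and 413 without at 48 h. This was a difference of 2.01 ± 0.31 (adjusted p = 0.000679), and 160095_at gave 1.59 ± 0.18 (adjusted p = 6.26e-05). At 0 h 160095_at was lower, with -0.69 ± 0.18 (adjusted p = 0.0155), and at 12 h higher, by 0.75 ± 0.18 (adjusted p = 0.0301), where the brighter probe set gave -0.24 ± 0.31 (adjusted p = 0.695) and 0.36 ± 0.31 (adjusted p = 0.625). Lox fell in control cells between 0 and 48 h and gave 0.18 ± 0.31 (adjusted p = 0.718) in treated cells, a difference of 2.24 ± 0.43 (adjusted p = 0.00287) between the changes, or 2.28 ± 0.25 (adjusted p = 4.68e-05) by 160095_at. Beside these, the summed level of the fibroblast list at 48 h, most of it from S100a4, was 16367 to 16755 with TSA and 4527 to 6019.9 without. S100a4 itself was higher by 1.80 ± 0.25 (adjusted p = 0.000354), and the part of the list in these changes was not tested. The change from 0 to 48 h also differed for Mmp14, by 1.03 ± 0.23 (adjusted p = 0.00725), for Pcolce, by 0.99 ± 0.26 (adjusted p = 0.0181), for Col6a3, by 0.95 ± 0.29 (adjusted p = 0.0335), for Col6a1, with -1.12 ± 0.27 (adjusted p = 0.0109), and for Lamb1, with -0.77 ± 0.24 (adjusted p = 0.0394). In all, 9 genes and 14 of 53 probe sets passed this test (26.4%, background 20.3%). The Nid2 TSA call at 0 h was lost without 1 of TSA 0 h replicate 1 or control 0 h replicate 2 (adjusted p = 0.0635 to 0.0722). The Nid2 TSA call at 4 h was lost without 1 of TSA 4 h replicate 2 or control 4 h replicates 1 or 2 (adjusted p = 0.0509 to 0.0672). The Lox TSA call at 0 h rested on each of its 4 arrays (adjusted p = 0.0514 to 0.105 without 1 of them). The Lox TSA call at 12 h rested on each of its 4 arrays (adjusted p = 0.0823 to 0.188 without 1 of them). The Pcolce call for the difference in change was lost without 1 of TSA 0 h replicate 2, TSA 48 h replicate 2, control 0 h replicate 1 or control 48 h replicate 2 (adjusted p = 0.0525 to 0.0686). The Col6a3 call for the difference in change was lost without 1 of TSA 0 h replicate 1, TSA 48 h replicates 1 or 2, control 0 h replicates 1 or 2 or control 48 h replicate 2 (adjusted p = 0.0657 to 0.126). The Lamb1 call for the difference in change was lost without 1 of TSA 0 h replicate 1, TSA 48 h replicate 2, control 0 h replicates 1 or 2 or control 48 h replicate 2 (adjusted p = 0.0705 to 0.142).

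**Figure D3:**
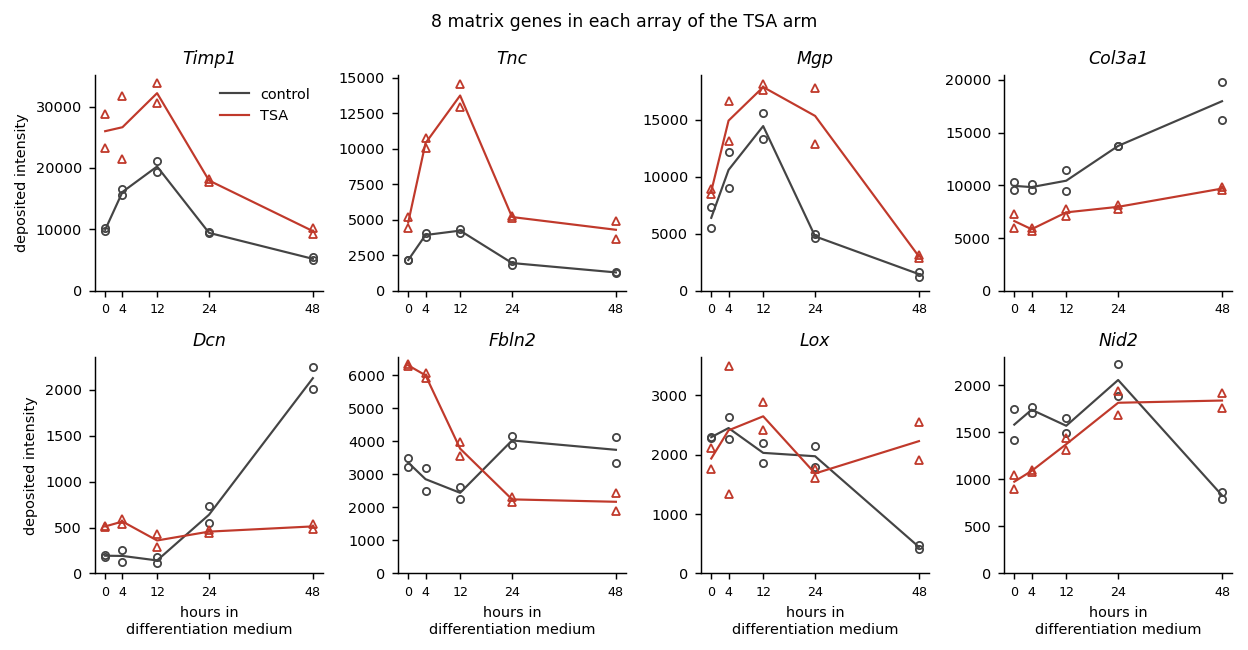
Intensity of 8 matrix genes on each of the 20 arrays of the TSA arm against hours in differentiation medium, with lines through the mean of 2 arrays for control and TSA-treated cells. Tnc and Timp1 lie higher with TSA at all times and Col3a1 lower, Dcn and Fbln2 cross between 12 and 48 h, and Lox and Nid2 separate at 48 h.

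Biglycan, fibronectin and Sparc were among the genes without a call for the TSA mean. Biglycan had a mean difference of -0.04 ± 0.06 (adjusted p = 0.663), Fn1 of 0.15 ± 0.09 (adjusted p = 0.31) and Sparc of -0.10 ± 0.10 (adjusted p = 0.543). Col18a1 passed at 0 h, by 0.44 ± 0.13 (adjusted p = 0.0368), with a mean of 0.07 ± 0.06 (adjusted p = 0.473), and Lamc1 passed at 24 h, with -0.65 ± 0.16 (adjusted p = 0.0354). Elastin probe set 92836_at was higher at 0 h, by 1.02 ± 0.26 (adjusted p = 0.0155), and lower at 48 h, with -0.87 ± 0.26 (adjusted p = 0.0339), while the brighter 92207_at did not pass at any time. Mfap5 probe set 99518_at was higher over the series, by 0.94 ± 0.13 (adjusted p = 0.000194), and the brighter 99517_at gave 0.31 ± 0.17 (adjusted p = 0.24). The remaining members did not pass for the mean, with log2 differences of -0.34 for Nid1, -0.18 for Thbs2, 0.26 for Mfap2, -0.45 for Fbln1, -0.17 for Col5a1, 0.30 for Col11a1 and -0.11 for Lum. Postn (-28.0 to 482), Mfap4 (-341 to 215) and Col15a1 (-182 to 44.2) had means over the 20 arrays under the level for testing. Single arrays of Postn and Mfap4 read above that level. Postn averaged 341 in TSA-treated cells at 48 h and 17.7 in TSA-treated cells at 0 h, a change that was not tested. The Col18a1 TSA call at 0 h rested on each of its 4 arrays (adjusted p = 0.0926 to 0.195 without 1 of them). The Lamc1 TSA call at 24 h rested on each of its 4 arrays (adjusted p = 0.0783 to 0.193 without 1 of them). The Eln TSA call at 0 h was lost without 1 of TSA 0 h replicate 1 or control 0 h replicates 1 or 2 (adjusted p = 0.0671 to 0.119). The Eln TSA call at 48 h was lost without 1 of TSA 48 h replicate 2 or control 48 h replicates 1 or 2 (adjusted p = 0.0913 to 0.2).

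In the Sir2 arm the matrix genes lay mostly on the higher side. At 36 h, 16 of 36 genes passed as higher in Sir2 cells than in vector cells and 2 as lower, led by Mgp, Pcolce, Dcn, Timp1 and Col3a1, with Postn and Mfap4 as the lower pair. Mfap4 reached the level for testing only through its vector arrays at 36 h, which this comparison also uses. Of 50 probe sets 23 passed as higher and 2 as lower, against 6.04% and 3.22% of all tested, and the median log2 change was 0.36 against -0.02. In 35 of the 50 the 3 Sir2 arrays did not overlap the 3 vector arrays, against 30.2% of all tested. Beside this, 2 of 3 tested fibroblast markers were higher, S100a4 by 0.73 ± 0.15 (adjusted p = 0.009) and Pdgfrb by 0.49 ± 0.14 (adjusted p = 0.0446), Tagln lower, with -1.08 ± 0.15 (adjusted p = 0.000768), and 4 of 6 myotube markers were lower. The summed level of the fibroblast list was 1922 to 2700.1 in Sir2 cells and 1341 to 1568 in vector cells, and that of the myotube list was 15048 to 18666 in Sir2 cells and 23309 to 24357 in vector cells. Most of the fibroblast sum was S100a4, at 1220 to 4469 over the 12 arrays, and Pdgfrb, the next highest, read at most 220. Tagln is 1 of 4 genes on its list, which summed to 1609 to 1790 in Sir2 cells and 2526 to 2750 in vector cells. Most of that sum was Acta2, at 1090 to 2670 over the 12 arrays. What part these markers have in the matrix differences was not tested.

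**Figure D4:**
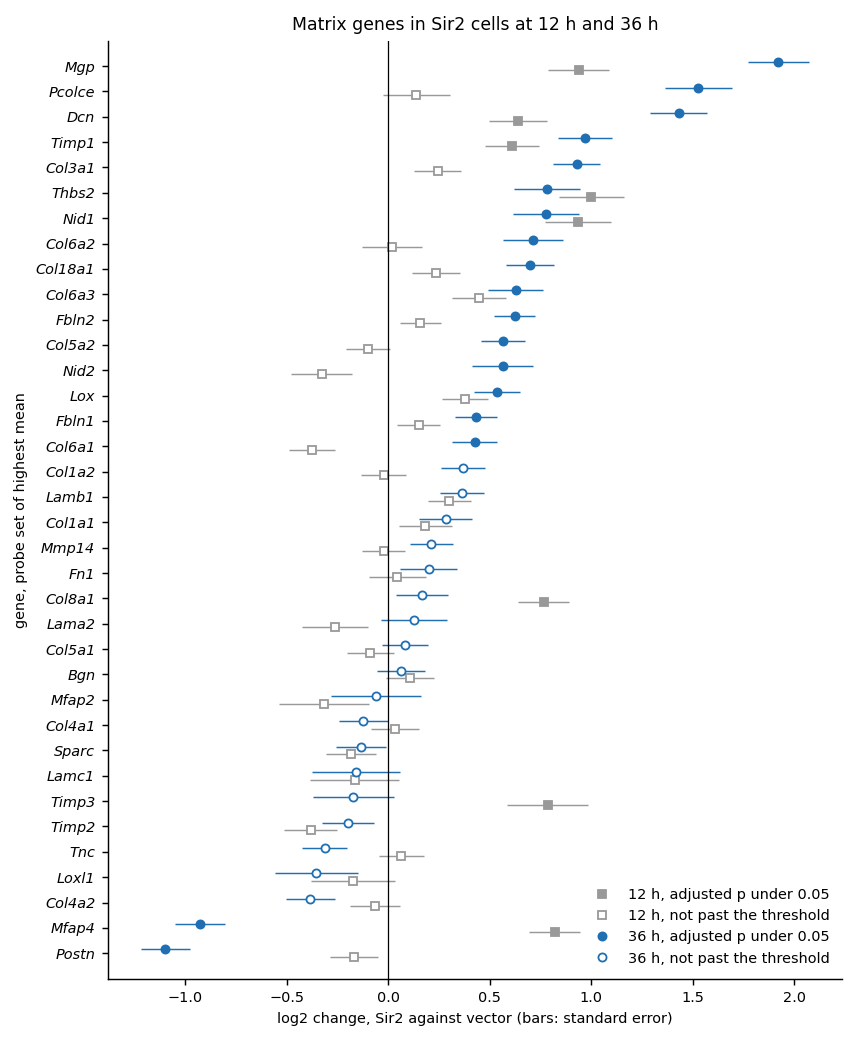
Log2 change with its standard error for Sir2 against vector at 12 and 36 h in the 36 matrix genes tested, with filled points where the adjusted p was under 0.05. At 36 h 16 filled points lie above 0, up to 1.92 for Mgp, and 2 lie below, Postn at -1.10 and Mfap4 at -0.93. Mfap4 was tested only because its vector arrays at 36 h were high.

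Mgp had the largest difference. It read 165, 199 and 237 in Sir2 cells and 47.5, 44.5 and 45.5 in vector cells at 36 h, and 1036, 1193 and 918 in Sir2 cells and 538, 469.9 and 623 in vector cells at 12 h. All Sir2 arrays were above all vector arrays of the same time. The differences were 1.92 ± 0.15 (adjusted p = 2.49e-05) at 36 h and 0.94 ± 0.15 (adjusted p = 0.0035) at 12 h, and they differed from each other by 0.98 ± 0.21 (adjusted p = 0.0399). Pcolce read 1456, 986 and 1402 in Sir2 cells and 406, 506 and 394 in vector cells at 36 h, and 2496, 2649.8 and 2362 in Sir2 cells and 2530.3, 1943 and 2378 in vector cells at 12 h. The groups did not overlap at 36 h and overlapped at 12 h. The difference was 1.53 ± 0.16 (adjusted p = 0.000185) at 36 h and 0.14 ± 0.16 (adjusted p = 0.748) at 12 h, with 1.39 ± 0.23 (adjusted p = 0.0169) between the times. Mgp and Pcolce also fell in vector cells from 12 to 36 h, with -3.33 ± 0.15 (adjusted p = 2.18e-08) and -2.37 ± 0.16 (adjusted p = 6.85e-07), a comparison that shares the vector arrays at 36 h. The Mgp call for the difference between times was lost without 1 of Sir2 12 h replicates 1, 2 or 3, Sir2 36 h replicates 2 or 3, vector 12 h replicates 1 or 3 or vector 36 h replicates 1, 2 or 3 (adjusted p = 0.0593 to 0.0931).

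Decorin was higher with Sir2 at both times. Dcn read 131, 110.3 and 125 in Sir2 cells and 89.8, 58.2 and 80.2 in vector cells at 12 h, and 549.6, 508 and 535 in Sir2 cells and 174, 204 and 197 in vector cells at 36 h. No Sir2 array overlapped the vector arrays of its time. The differences were 0.64 ± 0.14 (adjusted p = 0.0211) and 1.43 ± 0.14 (adjusted p = 0.0001), and vector cells rose by 1.26 ± 0.14 (adjusted p = 3.24e-05) from 12 to 36 h. Timp1 read 1254, 1078 and 1318 against 703, 556 and 595 at 36 h, a difference of 0.97 ± 0.13 (adjusted p = 0.000859), after 0.61 ± 0.13 (adjusted p = 0.0204) at 12 h. Timp3 was higher by 0.79 ± 0.20 (adjusted p = 0.0413) at 12 h and gave -0.17 ± 0.20 (adjusted p = 0.652) at 36 h, and Timp2 passed at neither time (-0.38 and -0.20). Mmp14 also passed at neither, with -0.02 and 0.21. The Dcn Sir2 call at 12 h was lost without 1 of Sir2 12 h replicates 1 or 3 or vector 12 h replicates 2 or 3 (adjusted p = 0.0501 to 0.0828). The Timp1 Sir2 call at 12 h was lost without 1 of Sir2 12 h replicates 1 or 2 or vector 12 h replicates 2 or 3 (adjusted p = 0.0526 to 0.071). The Timp3 Sir2 call at 12 h rested on each of its 6 arrays (adjusted p = 0.0647 to 0.153 without 1 of them).

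Among the collagens, Col3a1 read 2759, 2419.7 and 2564 in Sir2 cells and 1520.3, 1296 and 1244 in vector cells at 36 h, a difference of 0.93 ± 0.12 (adjusted p = 0.000438). Col5a2 was higher by 0.57 ± 0.11 (adjusted p = 0.00612), and the other tested fibrillar chains did not pass, with 0.28 ± 0.13 (adjusted p = 0.216) for Col1a1, 0.37 ± 0.11 (adjusted p = 0.0565) for Col1a2 and 0.08 ± 0.11 (adjusted p = 0.714) for Col5a1. The 3 type VI chains all passed as higher, with 0.71 ± 0.15 (adjusted p = 0.011) for Col6a2, 0.63 ± 0.13 (adjusted p = 0.0119) for Col6a3 and 0.43 ± 0.11 (adjusted p = 0.0336) for Col6a1. Col18a1 passed on all 4 tested probe sets at 36 h, from 0.70 ± 0.12 (adjusted p = 0.00279) on the brightest to 1.48 ± 0.13 (adjusted p = 5.27e-05) on 101881_g_at. On the brightest it read 584, 602 and 631 in Sir2 cells and 397, 367 and 344 in vector cells. Col4a1 and Col4a2 did not pass, with -0.12 ± 0.12 (adjusted p = 0.582) and -0.38 ± 0.12 (adjusted p = 0.0746). Col8a1 passed at 12 h, by 0.77 ± 0.13 (adjusted p = 0.00408). The Col6a3 Sir2 call at 36 h was lost without 1 of Sir2 36 h replicate 1 or vector 36 h replicate 3 (adjusted p = 0.0523 to 0.0546). The Col6a1 Sir2 call at 36 h was lost without 1 of Sir2 36 h replicates 1, 2 or 3 or vector 36 h replicates 2 or 3 (adjusted p = 0.0537 to 0.132).

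Of the basement membrane linkers, Nid1 was higher at both times, by 0.94 ± 0.16 (adjusted p = 0.00562) at 12 h and 0.78 ± 0.16 (adjusted p = 0.011) at 36 h, and Nid2 at 36 h, by 0.56 ± 0.15 (adjusted p = 0.0374). Lamb1 gave 0.36 ± 0.11 (adjusted p = 0.0559) at 36 h on its brightest probe set and was higher by 0.85 ± 0.16 (adjusted p = 0.0059) on 101948_at, and Lamc1 and Lama2 did not pass (-0.16 and 0.13). Thbs2, thrombospondin 2, an inhibitor of vessel growth, was higher at both times, by 1.001 ± 0.16 (adjusted p = 0.0035) and 0.78 ± 0.16 (adjusted p = 0.00962). Among elastic fibre and cross-linking genes, Fbln2 was higher at 36 h by 0.62 ± 0.10 (adjusted p = 0.00233), Lox by 0.54 ± 0.11 (adjusted p = 0.0119) and Fbln1 by 0.43 ± 0.10 (adjusted p = 0.0218). Of the 3 tested probe sets of Fbln1, 2 passed at 36 h, and 94308_at did not, with means of 150 in Sir2 cells and 151 in vector cells. Loxl1 (-0.35) and Mfap2 (-0.06) did not pass. Neither did Tnc at 36 h, with -0.31 ± 0.11 (adjusted p = 0.106), nor Bgn (0.06), Fn1 (0.20) and Sparc (-0.13). The Nid2 Sir2 call at 36 h was lost without 1 of Sir2 36 h replicates 2 or 3 or vector 36 h replicates 1, 2 or 3 (adjusted p = 0.0559 to 0.129). The Lox Sir2 call at 36 h was lost without vector 36 h replicate 3 (adjusted p = 0.0501). The Fbln1 Sir2 call at 36 h was lost without 1 of Sir2 36 h replicates 1, 2 or 3 or vector 36 h replicates 2 or 3 (adjusted p = 0.0502 to 0.0871).

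Periostin and Mfap4 were the 2 genes lower with Sir2 at 36 h. Postn, an adhesive matricellular protein, read 54.5, 61.9 and 65.2 in Sir2 cells and 123, 146 and 151 in vector cells at 36 h, after 21.1, 27.5 and 21.3 in Sir2 cells and 27.6, 26.9 and 26.9 in vector cells at 12 h. Its difference was -1.10 ± 0.12 (adjusted p = 0.000185) at 36 h and -0.17 ± 0.12 (adjusted p = 0.517) at 12 h, with -0.93 ± 0.17 (adjusted p = 0.0239) between the times. Mfap4, a microfibril glycoprotein, read 34.5, 31.1 and 26.8 in Sir2 cells and 61.8, 61.8 and 76.1 in vector cells at 36 h, after 28.4, 23.2 and 29.6 and 13.1, 10.6 and 10.8 in the same order at 12 h. Sir2 arrays were thus above vector arrays at 12 h and below them at 36 h, with 0.82 ± 0.12 (adjusted p = 0.00243) and -0.93 ± 0.12 (adjusted p = 0.000735), and the effects differed by -1.75 ± 0.18 (adjusted p = 0.0013). Both genes rose in vector cells from 12 to 36 h, Postn by 2.04 ± 0.12 (adjusted p = 1.65e-07) and Mfap4 by 1.89 ± 0.12 (adjusted p = 4.14e-07). The Mfap4 probe set averaged 34.0 over the arm, against the 31.1 needed for testing. Only its vector mean at 36 h, 66.6, was above that level. Its testing thus rested on arrays that the 36 h difference, the vector rise and the difference between times also use. Its vector mean at 12 h, 11.5, was near the pseudocount of 8.82. The second Mfap4 probe set, 96826_at, was not tested, and its Sir2 arrays overlapped the vector arrays at 12 h and lay below them at 36 h. Col6a1 was the remaining gene whose Sir2 effect differed between the times, by 0.80 ± 0.16 (adjusted p = 0.029), and 6 of 50 probe sets passed that test in all (12%, background 1.76%). The Postn call for the difference between times was lost without 1 of Sir2 12 h replicate 2, Sir2 36 h replicate 1 or vector 36 h replicates 2 or 3 (adjusted p = 0.0511 to 0.0593). The Col6a1 call for the difference between times was lost without 1 of Sir2 12 h replicates 1 or 2, Sir2 36 h replicates 1, 2 or 3, vector 12 h replicates 1 or 3 or vector 36 h replicates 2 or 3 (adjusted p = 0.0536 to 0.0792).

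**Figure D5:**
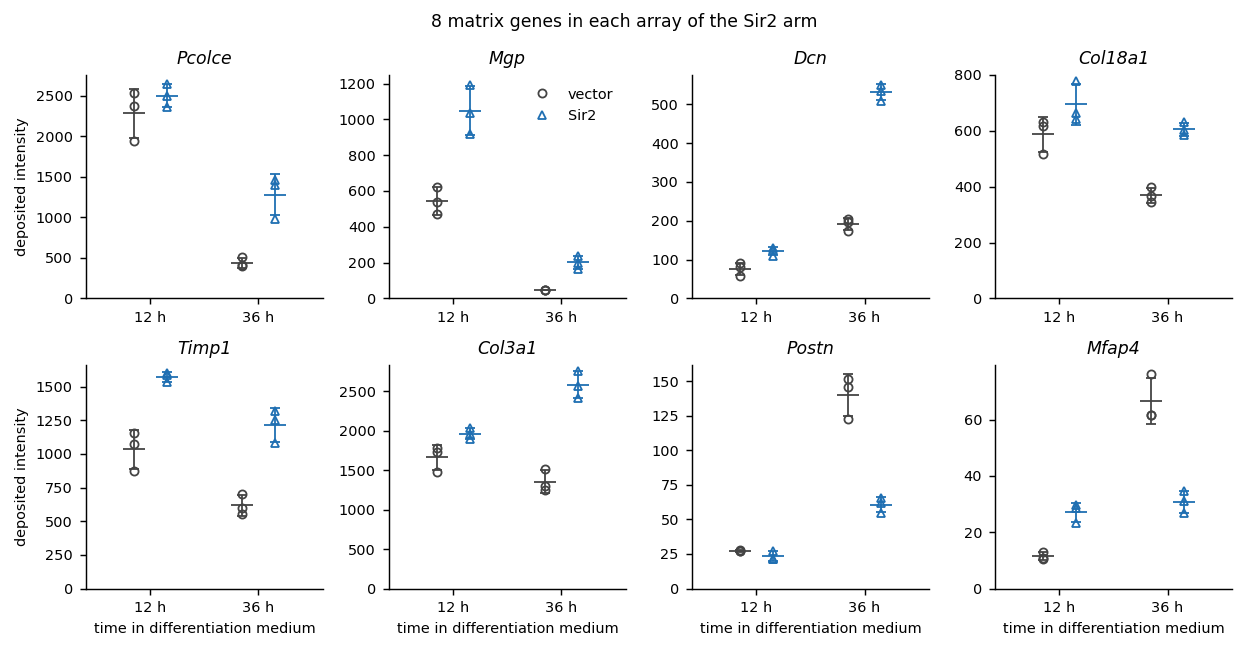
Intensity of 8 matrix genes on each of the 12 arrays of the Sir2 arm, with bars for the mean and SD of 3 arrays. Mgp, Pcolce, Dcn, Col18a1, Timp1 and Col3a1 lie higher in Sir2 cells at 36 h, Postn and Mfap4 lower.

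In vector cells 13 of 36 genes fell and 6 rose between 12 and 36 h, and 26 of 50 probe sets passed (52%, background 32.1%, of which 12.4% higher and 19.7% lower). They had a median log2 change of -0.15 against -0.02 over all tested. Besides Mgp and Pcolce the larger falls were those of Lox, with -1.44 ± 0.11 (adjusted p = 1.99e-06), Nid1, with -1.33 ± 0.16 (adjusted p = 6.24e-05), and Nid2, with -1.16 ± 0.15 (adjusted p = 0.00011). Besides Postn, Mfap4 and Dcn the larger rise was that of Col1a1, by 0.93 ± 0.13 (adjusted p = 0.000198). In Sir2 cells 21 of 50 probe sets passed over the same interval (42%, background 28.5%), with Mgp at -2.34 ± 0.15 (adjusted p = 3.85e-07). The vector and Sir2 comparisons share arrays with those between the cells, so they are set side by side and not counted together. Col11a1 (4.83 to 36.9), Col15a1 (4.41 to 27.1), Lum (12.7 to 34.7), Fmod (3.01 to 26.6), Eln (1.04 to 34.6), Mmp2 (2.83 to 28.6) and Mfap5 (3.38 to 44.9) had means over the 12 arrays under the level for testing.

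The TSA and Sir2 arms share no arrays, so calls of their mean effects could be set against each other for the 46 matrix probe sets tested in both. Of these, 20 passed for TSA (background 22% of all tested in the TSA arm) and 21 for Sir2 (background 12.6% of all tested in the Sir2 arm). Both effects passed for 10 probe sets of 8 genes, which is 10 of the 20 and 10 of the 21. In 5 of the 10 the direction was the same, higher in both: Timp1 (0.91 with TSA and 0.79 with Sir2), Mgp (0.78 and 1.43), Col8a1 (0.72 and 0.47), Lamb1 (0.40 and 0.33) and Lox by 160095_at (0.30 and 0.46). In the other 5 the means were opposite, lower with TSA and higher with Sir2. These were Pcolce (-0.54 and 0.83), Col6a3 (-0.62 and 0.54) and all 3 probe sets of Col3a1, the brightest with -0.69 and 0.59. For Pcolce both effects differed between times (F test adjusted p = 0.0116 for TSA, 36 h minus 12 h of 1.39 for Sir2). Its TSA effect passed up to 12 h and not later, and its Sir2 effect passed at 36 h and not at 12 h. The opposition for Pcolce is thus one of means and was not seen as calls at the same time. Among all 6633 probe sets tested in both arms, the shares passing in both and agreeing in direction were not counted. The overlap of 10 and its split by direction therefore stand without a background. The arms differ in times, scale and processing, and the difference between their effects was not tested.

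Other genes of the same system were counted from lists of collagen folding enzymes, receptors, TGF-beta genes, further matrix proteins and further proteases. Counts are of genes past the threshold, by their brightest probe set, and are to be read beside the shares of all tested probe sets. In untreated cells at 48 h, where 16% of all tested rose and 19.3% fell, 7 of 17 further matrix genes rose and 0 fell, with Ogn, a proteoglycan related to decorin, at 2.70 ± 0.23 (adjusted p = 2.18e-06) and versican (Vcan) at 2.24 ± 0.17 (adjusted p = 6.97e-07). Of the TGF-beta genes, 1 of 12 rose and 6 fell, with Tgfb3 at 0.996 ± 0.13 (adjusted p = 9.04e-05), and Ccn2, an early target that drives matrix genes, at -1.24 ± 0.21 (adjusted p = 0.000488). Of the receptors 5 of 14 rose and 3 fell, including the collagen receptor Ddr2, at 1.10 ± 0.12 (adjusted p = 1.14e-05), and the laminin-binding integrin Itga7, at 1.78 ± 0.33 (adjusted p = 0.00112). Of the folding genes 2 of 7 rose, among them the collagen chaperone Serpinh1 at 0.70 ± 0.14 (adjusted p = 0.00213), and 2 fell, among them the procollagen protease Bmp1 at -1.75 ± 0.38 (adjusted p = 0.00319). Of the proteases 5 of 13 rose and 1 fell.

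With TSA, where 10.2% of all tested passed as higher and 11.9% as lower, the mean effect on the TGF-beta list was higher for 5 and lower for 2 of 12 genes, with Ccn2 at 1.94 ± 0.09 (adjusted p = 2.42e-08) and Tgfb3 at 0.66 ± 0.06 (adjusted p = 7.4e-06). On the receptors it was higher for 3 and lower for 1 of 14, with Itgb1 at 0.37 ± 0.05 (adjusted p = 0.000133) and Ddr2 at -0.43 ± 0.05 (adjusted p = 8.25e-05). Further matrix genes were higher for 3 and lower for 3 of 17, the proteases for 1 and 2 of 13 and the folding genes for 0 and 1 of 7, with P4ha1, a prolyl hydroxylase, at -0.49 ± 0.07 (adjusted p = 0.000186). With Sir2 at 36 h, where 6.04% of all tested passed as higher and 3.22% as lower, no gene of 13 on the TGF-beta list passed in limma, and 2 had an unadjusted p under 0.05. The proteases were higher for 3 of 9, with Plaur, the urokinase receptor, at 2.59 ± 0.18 (adjusted p = 2.49e-05), and the receptors for 2, with 1 lower, of 15. Further matrix genes were higher for 2 of 13, with Vcan at 0.98 ± 0.15 (adjusted p = 0.00164), and the folding genes for 1 of 7.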

How the data were processed

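Each array came with 1 linear intensity for every probe set, used as the authors deposited it. Per the submitters' processing notes the Sir2 arm was made with MAS5, with no version. For the TSA arm no tool was found in the labels, and its deposited intensities include values below 0. Symbols came from the platform table, updated by Entrez identifier: 10833 of 12422 probe sets had 1 symbol, 396 several and 1193 none, and only the first were used.

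TSA arm values below 0 were set to 0, and log2(value + 137.7) was taken there and log2(value + 8.82) in the Sir2 arm. Probe sets with a mean of at least 144.9 and 31.1 were tested. Each arm was fitted as a whole in limma 3.58.1 (R 4.3.3), 1 mean per group, on 10 and 8 residual degrees of freedom, with Benjamini-Hochberg adjustment over all 7453 probe sets. The fit was tested on simulated data. Array measures were compared by exact permutation of treatment within times.

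Alternatives were quantile normalization, median centring, other pseudocounts and filters, a variance trend, a replicate block, a covariate for titles ending in b, fits on only the groups compared, and leaving out each array. Array values are given for the largest changes past the threshold and for the Timp, decorin and collagen families. The members, lists and settings were chosen with earlier results of these data known. The number of arrays limits the precision.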

Additional observations from a re-analysis of the deposited data

Results flagged for a closer look

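In 16 matrix genes the effect of TSA differed between the 5 times, by the limma F test over all tested probe sets. The adjusted p values were 5.59e-05 for Dcn, 8.05e-05 for Fbln2, 0.000255 for Nid2, 0.00488 for Col6a3, 0.00824 for Lox, 0.00966 for Timp3, 0.0106 for Col6a1 and 0.0116 for Pcolce. In the remaining genes they were 0.0149 for Mmp14, 0.0234 for Mgp, 0.0244 for Lama2, 0.0274 for Loxl1, 0.0305 for Col18a1, 0.0368 for Lamc1, 0.0394 for Col4a1 and 0.0435 for Col6a2.

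In 9 genes the log2 change from 0 to 48 h differed between TSA-treated and control cells. The change was the higher one with TSA by 2.24 for Lox, 1.65 for Nid2, 1.03 for Mmp14, 0.99 for Pcolce and 0.95 for Col6a3. It was the lower one with TSA in the others, with differences of -2.77 for Dcn, -1.64 for Fbln2, -1.12 for Col6a1 and -0.77 for Lamb1.

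In 5 genes the effect of Sir2 differed between 36 and 12 h. The difference on the log2 scale, 36 h minus 12 h, was 1.39 for Pcolce, 0.98 for Mgp, 0.80 for Col6a1, -0.93 for Postn and -1.75 for Mfap4. The Mfap4 probe set reached the level for testing only through its vector arrays at 36 h, which this difference also uses. Calls of the last 2 kinds that were lost without a single array are named where the gene is described. The F test did not pass for Col18a1 without any 1 of 11 of the 20 arrays (adjusted p = 0.0511 to 0.0787). The F test did not pass for Col4a1 without any 1 of 17 of the 20 arrays (adjusted p = 0.0523 to 0.0867). The F test did not pass for Col6a2 without any 1 of 15 of the 20 arrays (adjusted p = 0.0602 to 0.13). The F test did not pass for Lama2 without 1 of TSA 0 h replicate 1, control 0 h replicate 1, TSA 12 h replicate 1, TSA 12 h replicate 2 or control 12 h replicate 2 (adjusted p = 0.0526 to 0.0711). The F test did not pass for Lamc1 without any 1 of 10 of the 20 arrays (adjusted p = 0.0534 to 0.128). The F test did not pass for Loxl1 without 1 of control 48 h replicate 1, TSA 12 h replicate 1, TSA 12 h replicate 2, TSA 48 h replicate 1 or control 12 h replicate 2 (adjusted p = 0.0522 to 0.0781). It did not pass for Mgp without 1 of control 24 h replicate 3, control 24 h replicate 2 or TSA 24 h replicate 2 (adjusted p = 0.055 to 0.08). The causes were not tested.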

How the results depend on the processing

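Of 249 calls of matrix genes over all comparisons, 146 were kept under every alternative run, 103 were lost under at least 1 and 74 were lost without 1 array, and none changed direction. Counts below are matrix probe sets past the threshold, each against the reported count. Fits on only the groups compared gave 0 against 1 for untreated cells at 4 h, 0 against 9 at 12 h and 5 against 13 at 24 h, 1 against 12 for TSA at 4 h, 0 against 10 at 12 h, 0 against 12 at 24 h and 0 against 20 at 48 h, and 9 against 20 for treated cells from 0 to 48 h. At an unadjusted p under 0.05 in limma, the fits that gave 0 had 13, 19, 20, 19 and 21 matrix probe sets, in that order. They rest on fewer arrays. For untreated cells at 4 h, quantile normalization gave 3, and double the pseudocount, the filter at the 60th percentile and the variance trend gave 2 each. For Sir2, no filter gave 6 against 10 at 12 h, and for its difference between times no filter gave 2, the filter at the 60th percentile 10 and the variance trend 11 against 6. In Sir2 cells from 12 to 36 h the reported calls were 10 higher and 11 lower, and median centring gave 11 higher and 8 lower. The cause was not tested.

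Without 1 array the counts ran from 0 to 0 for untreated cells at 4 h, from 2 to 7 at 12 h and from 7 to 9 at 24 h. They ran from 8 to 12 for TSA at 0 h, from 5 to 11 at 4 h, from 2 to 6 at 12 h, from 7 to 10 at 24 h and from 13 to 17 at 48 h. They ran from 15 to 23 for the difference of the TSA effect between times, from 12 to 16 for treated cells from 0 to 48 h, from 6 to 8 for Sir2 at 12 h and from 2 to 6 for its difference between times. In the other comparisons no omission moved the count by more than 1.5 times.

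No pairing of arrays by replicate number was established. Correlations of deviations between arrays of 1 number ran from -0.101 to 0.228 in the TSA arm and from -0.314 to 0.139 in the Sir2 arm. With 2 arrays a group in the TSA arm, the deviations mirror each other, so these values cannot settle whether arrays were paired. A replicate block gave 7 against 13 for untreated cells at 24 h, 30 against 29 at 48 h, 21 against 21 for the mean TSA effect and 24 against 25 for Sir2 at 36 h, and in the other comparisons it stayed within 1.5 times the reported count. With the numbers of untreated cells at 12 h crossed, an alternative chosen after seeing the data, the block gave 8 against 9. Dim probe sets limit what can be seen, since the added pseudocount compresses their changes.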
